A study of Mus musculus with 2 samples.

Results

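Collagen processing and secretion were followed through 42 genes, taken by name from the 25289 genes of a single-cell count table of mouse bone marrow stroma. The members were the collagen-modifying enzymes, lysyl oxidases, chaperones of the endoplasmic reticulum (ER), translocon subunits and ER export genes named below, and all 42 were found in the table. RNA of single cells was captured by inDrops, a droplet method, from mice of the strain labelled C56BL/6 at 8 to 16 weeks of age. Femurs, tibiae and pelvic bones were crushed, the fragments were digested with collagenase and dispase for 45 min, and cells negative for CD31, CD45 and Ter119 were sorted. The labels give 1 untreated group of 2 samples, Stroma1 and Stroma2, and do not say whether these were separate animals. The p-values rest on how far differences between groups of cells varied between the 2 samples, a spread that may be technical. The comparisons were therefore made within the samples, between the classes of cell that the authors' table names and along the authors' osteoblast pseudotime, an ordering of cells from MSC to Pro-osteoblast.

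Collagen chains enter the ER through the translocon, are hydroxylated on prolines and lysines while they fold, and need a dedicated chaperone, Serpinh1, to stay in triple-helical form. Folded procollagen leaves in COPII carriers, its end propeptides are cut off outside the cell, and lysyl oxidases begin the cross-linking of the fibre. Osteoblasts build the organic matrix of bone mostly from type I collagen. The general ER chaperones, led by the ATP-driven Hspa5 (BiP), serve all secreted proteins, and their genes are known to be induced by the unfolded protein response, the reaction to misfolded protein in the ER.

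Promoter stretches of 6 members are shown because the general chaperones, which did not rise with most other members in the results below, are known to be switched on through the letters in capitals. These letters, the ER stress response element (ERSE), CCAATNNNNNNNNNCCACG, were searched on both strands in RefSeq windows of 250 bases before to 50 bases after each start (GRCm38.p6). They stood in 0.119% of 32851 windows of all genes and in the windows of 6 of the 29 members that had one. All 6 are general chaperones or a disulfide isomerase of the ER. The match is in capitals, read 5′ to 3′ on the strand of the gene, and appears as its reverse complement in Calr and at the second match of Hsp90b1.
Hspa5, chr2:34772020-34772048, plus strand: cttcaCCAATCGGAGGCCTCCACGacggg
Hsp90b1, chr10:86705518-86705671, minus strand: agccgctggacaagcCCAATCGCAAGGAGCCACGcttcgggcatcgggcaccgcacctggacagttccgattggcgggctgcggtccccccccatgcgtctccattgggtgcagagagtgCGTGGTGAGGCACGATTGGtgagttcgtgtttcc
Calr, chr8:84847060-84847108, minus strand: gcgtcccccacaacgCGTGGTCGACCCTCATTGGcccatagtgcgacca
Canx, chr11:50325785-50325833, minus strand: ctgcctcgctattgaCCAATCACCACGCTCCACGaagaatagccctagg
Dnajc3, chr14:118937812-118937860, plus strand: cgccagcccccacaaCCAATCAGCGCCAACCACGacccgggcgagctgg
Pdia6, chr12:17266476-17266524, plus strand: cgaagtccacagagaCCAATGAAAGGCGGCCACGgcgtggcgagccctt
Also searched were CCACG alone, which stood in 32.8% of all windows and 22 of the 29 member windows, the variant ATTGGNCCACG, in 0.0365% of all windows and among members in that of Dnajb11, and TGACGTGG, the core of a further unfolded protein response element, which stood in 0.676% of all windows and, among members, in those of Kdelr3 and Sec24d. A match is a run of letters, not a measured binding site. No window was listed for Plod2, Fkbp10, Tmem38b, Bmp1, Lox, Loxl1, Loxl2, Loxl3, Kdelr2, Creb3l1, Sec61a1, Ssr2 and Manf.

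After the authors' filter, Stroma1 held 948 cells and 1658990 counts in all, and Stroma2 held 1899 cells and 3687913 counts. Barcodes recurred between libraries of the same sample for 64 and 435 of these cells, and 12 barcodes were shared between the samples. The classes compared were Pro-osteoblast (42 and 305 cells in Stroma1 and Stroma2), Pre-osteoblast/chondrocyte (25 and 66), Osteoblast progenitor (144 and 260), Pre-adipocyte (66 and 145), Adipocyte progenitor (165 and 298) and MSC (502 and 815). Recurring barcodes were most frequent in Pro-osteoblast, where keeping each barcode once left 33 and 209 cells. In MSC it left 489 and 760. Pro-osteoblast cells fitted their label, with summed levels of 8 osteoblast markers of 214270 and 213640 CPM (counts scaled to a library total of 1000000), against 8657 and 9147 in MSC. Col1a1 made up most of this sum in Pro-osteoblast, and Bglap, the gene of the bone protein osteocalcin, had 1039 and 5396 counts there, against 0 and 3 in MSC. The 5 adipocyte markers summed to 9822 and 9453 CPM in Pre-adipocyte and to 12661 and 12188 CPM in MSC, so the data do not set the first apart as nearer to fat cells. The 5 chondrocyte markers summed to 326 and 75.2 CPM in Pre-osteoblast/chondrocyte, against 347 and 751 CPM in Pro-osteoblast. Both names are used here only as the authors' class labels. Summed markers of blood, endothelial and the other listed cell types were at 36.2 to 468 CPM in 5 of these classes and at 2335 and 679 CPM in Pre-adipocyte.

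Counts were summed per sample and class, and each class was set against the mean of the other 5 with edgeR's quasi-likelihood test, with p-values adjusted by Benjamini-Hochberg over all 6229 genes tested. Of the members, 40 passed the filter on low counts, and a member is called when its adjusted p is under 0.05. Levels are given as TMM-scaled CPM, which set the bulk of genes level between sums. This choice matters in Pro-osteoblast, where Col1a1 and Col1a2 led the counts and the TMM factors were 0.590 and 0.506, against 1.25 and 1.25 in MSC. With raw totals in place of TMM the median gene moved from 0.03 to -1.07 on the log2 scale in Pro-osteoblast against the other 5 classes, so each change below is relative to the median gene. The cell classes and the pseudotime may themselves rest partly on the members. Each cell was also given the commonest authors' class among its nearest neighbours, computed without the members and the other listed genes. With these classes 99.4% of Pro-osteoblast cells and 47.0% of Osteoblast progenitor cells kept their class. The labels passed on are still the authors', so this cannot show that the classes are independent of the members.

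Pro-osteoblast stood apart. Of the 40 members, 27 rose and 7 fell there, with a median log2 change of 1.39, against 0.03 for all genes, of which 21.4% rose and 17.9% fell. The 27 were the tested collagen hydroxylases but for Plod3, all 4 collagen chaperones and isomerases, both propeptide processing genes, Lox, Loxl2 and Sparc, with all 5 export and retrieval genes, all 6 translocon genes, and Dnajb11 and Manf of the ER chaperones. The 7 that fell were Hspa5, Hsp90b1, Calr, Sdf2l1, Pdia6, Tmem38b and Loxl1. The levels of 26 members in both Pro-osteoblast sums lay above all 10 sums of the other classes, and those of 4 lay below them. This count was not made over all genes, and the shares of 21.4% and 17.9% are of edgeR calls. Of the 6 members with an ERSE in the window, 0 rose (0 also at an unadjusted p under 0.05), 4 fell and 2 were not called. Of the 21 tested members whose window held none, 17 rose, 1 fell and 3 were not called. Of the 13 members with no window listed, 10 rose, 2 fell and 1 was not called. All 6 with an ERSE are general chaperones or a disulfide isomerase, so element and role cannot be told apart, and a part of the ERSE was not tested. With raw totals, which lower every gene here, 18 of the 27 remained higher; the changes of Ppib and Dnajb11 turned to -0.04 and -0.47.

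**Figure D1:**
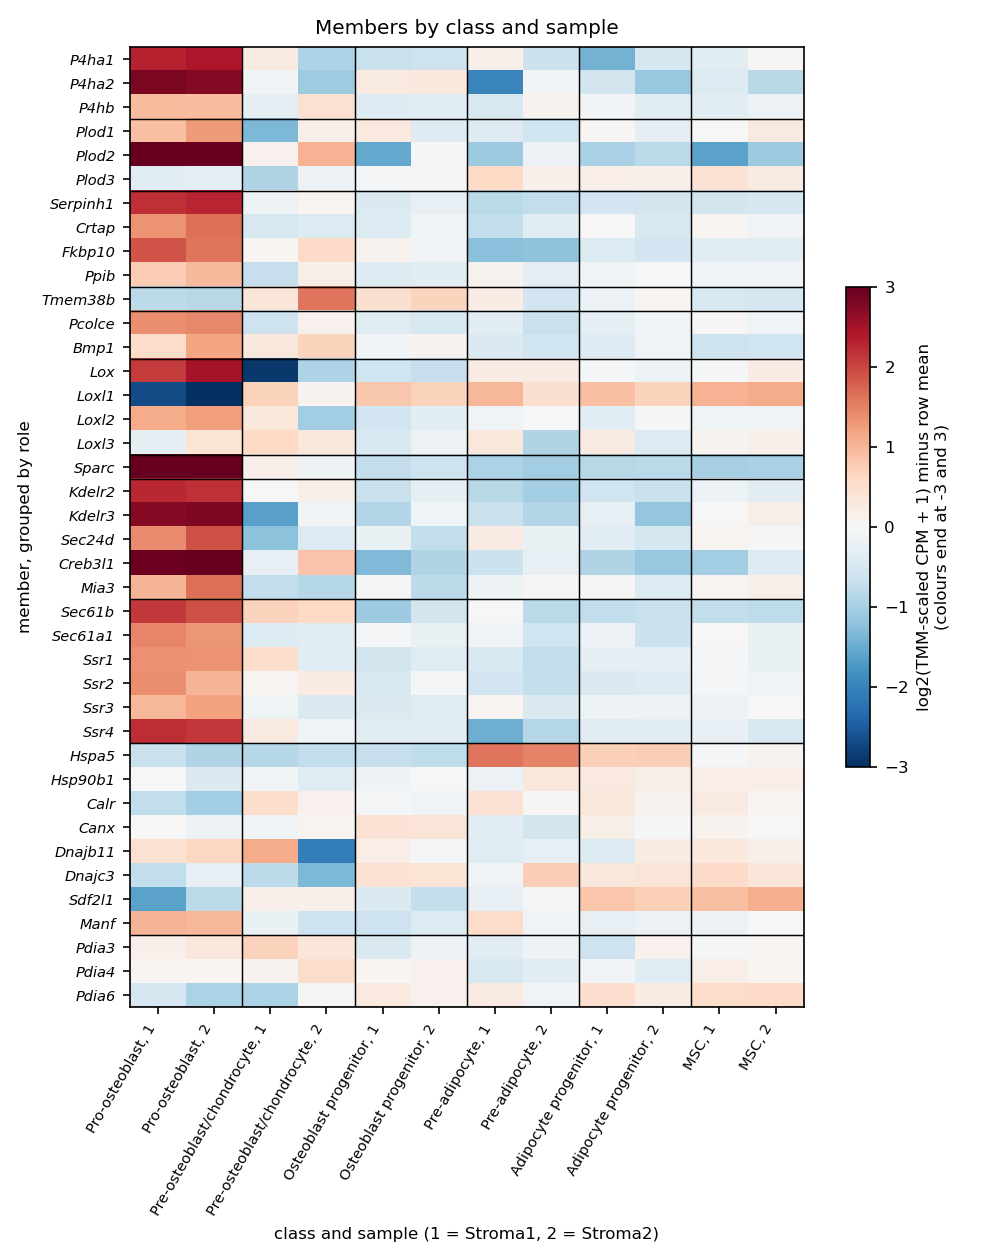
Levels of the 40 tested members (rows, by role) in each class and sample (columns), as log2(TMM-scaled CPM + 1) minus the mean of the row. The Pro-osteoblast columns of both samples are red for most rows, and blue for Loxl1, Hspa5, Calr, Sdf2l1, Tmem38b and Pdia6.

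**Figure D2:**
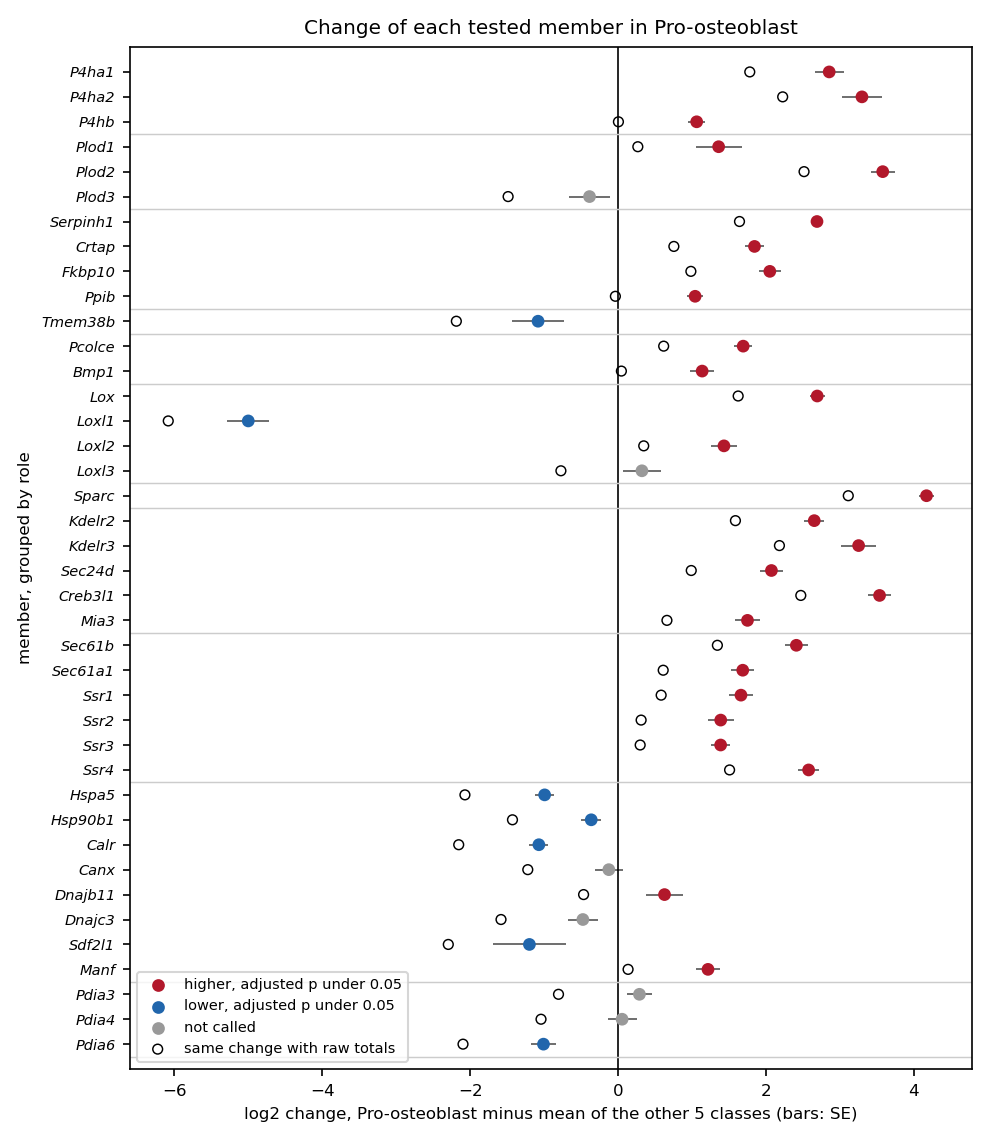
Change of each tested member in Pro-osteoblast against the mean of the other 5 classes, with its SE; open circles give the same change with raw totals. The translocon and export genes all lie right of 0 and most ER chaperones left of it, and raw totals move every gene left by about the same amount.

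The prolyl 4-hydroxylase is built from catalytic subunits (P4ha1, P4ha2, P4ha3) and from P4hb, which also serves as a protein disulfide isomerase. P4ha1 was at 497 and 537 TMM-scaled CPM in the Pro-osteoblast sums of Stroma1 and Stroma2, against 36.6 to 119 (median 65.8) in the 10 other sums, a log2 change of 2.86 (SE 0.19, adjusted p = 2.7e-23). P4ha2 was at 262 and 249 in Pro-osteoblast, against 8.50 to 45.4 (median 25.8) elsewhere, a change of 3.30 (SE 0.27, adjusted p = 1.0e-18). P4hb was at 1452 and 1429 in Pro-osteoblast, against 535 to 1034 (median 609) elsewhere, a change of 1.06 (SE 0.11, adjusted p = 6.7e-14). No Pro-osteoblast sum of these 3 genes overlapped the other classes, and the change of P4hb was 0.01 with raw totals. P4ha3 had 0 counts in both Pro-osteoblast sums and 0 to 5 counts in each of the other 10, and was not tested.

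Of the lysyl hydroxylases, 2 of 3 rose. Plod2, which acts on the lysines of the collagen ends that later form cross-links, was at 871 and 982 in Pro-osteoblast, against 35.4 to 227 (median 58.5) elsewhere, a log2 change of 3.58 (SE 0.16, adjusted p = 2.7e-34). Plod1, which modifies lysines within the helix, was at 84.3 and 109.9 in Pro-osteoblast, against 17.0 to 55.1 (median 40.4) elsewhere, a change of 1.36 (SE 0.31, adjusted p = 1.8e-04). Plod3 was at 74.9 and 77.5 in Pro-osteoblast, against 51.0 to 144 (median 107) elsewhere, and was not called, with a log2 change of -0.39 (SE 0.28, adjusted p = 0.29).

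Among the collagen chaperones, Serpinh1 (Hsp47) was at 13500.4 and 14432 in Pro-osteoblast, against 1691 to 3109 (median 2036) elsewhere, a log2 change of 2.69 (SE 0.09, adjusted p = 5.8e-45). Both Pro-osteoblast sums were above all 10 sums of the other classes. Fkbp10, a cis-trans isomerase that acts on procollagen, was at 909 and 757 in Pro-osteoblast, against 102 to 369.7 (median 194) elsewhere, a change of 2.05 (SE 0.15, adjusted p = 3.3e-22). Crtap and Ppib (cyclophilin B) are partners in the complex that hydroxylates single prolines at carbon 3. Crtap was at 899 and 1122 in Pro-osteoblast, against 212 to 373 (median 273) elsewhere (1.85 on the log2 scale), and Ppib at 1218 and 1419, against 442 to 807 (median 663) (1.04). Both Ppib and Fkbp10 overlap an antisense gene in GENCODE, as do other members, and whether the counting used the strand is not given in the sources used here. Tmem38b, an ER cation channel that is mutated in a brittle bone disease, went the other way, with 37.5 and 36.6 in Pro-osteoblast, against 43.7 to 202 (median 72.3) elsewhere, a log2 change of -1.08 (SE 0.35, adjusted p = 0.01).

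Outside the cell, Bmp1 cuts the C-terminal propeptide of procollagen and Pcolce enhances that cut. Pcolce was at 1031 and 1079 in Pro-osteoblast, against 248 to 429 (median 317) elsewhere, a log2 change of 1.69 (SE 0.12, adjusted p = 1.4e-22). Bmp1 was at 356 and 548 in Pro-osteoblast, against 157 to 387 (median 205) elsewhere, a change of 1.14 (SE 0.16, adjusted p = 2.4e-09). The Bmp1 sums overlapped those of Pre-osteoblast/chondrocyte (306 and 387), and with raw totals its change was 0.05.

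The lysyl oxidases, which oxidise lysines of collagen and elastin, went in opposite directions. Lox was at 2764 and 3615 in Pro-osteoblast, against 85.0 to 765 (median 596) elsewhere, a log2 change of 2.69 (SE 0.10, adjusted p = 5.4e-39). Loxl1, best known for its part in elastic fibres, was at 46.8 and 9.86 in Pro-osteoblast, against 328 to 656 (median 513) elsewhere, a change of -5.00 (SE 0.29, adjusted p = 9.3e-28). All 10 sums of the other classes were far above the Pro-osteoblast sums of Loxl1, which rested on 5 and 7 counts. Loxl2 was at 375 and 414 in Pro-osteoblast, against 84.0 to 221 (median 159.6) elsewhere (1.43 on the log2 scale). Loxl3 changed by 0.32 (SE 0.26, adjusted p = 0.35), with opposite signs in the 2 samples, and was not called. Loxl4 did not pass the filter: it had 3 and 25 counts in Pro-osteoblast and 0 or 1 in each of the other 10 sums.

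Sparc (osteonectin), a secreted glycoprotein that binds collagen and calcium, was at 96498 and 127407 in Pro-osteoblast, against 4901 to 11097 (median 5710.1) elsewhere, a log2 change of 4.17 (SE 0.10, adjusted p = 2.6e-55). The higher of the other sums were those of Pre-osteoblast/chondrocyte, at 11097 and 9008. In raw CPM, all 42 members together took 75475 and 81057 CPM in Pro-osteoblast, against 21335 and 21717 in MSC. Without Sparc the members took 20462 and 18730 CPM in Pro-osteoblast, against 15527 and 15745 in MSC.

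The members that control traffic out of the ER all rose in Pro-osteoblast, with both scalings. Creb3l1 (OASIS), an ER membrane-bound transcription factor that is needed for type I collagen expression in mouse bone, was at 937 and 1003 in Pro-osteoblast, against 47.7 to 218 (median 70.3) elsewhere, a log2 change of 3.54 (SE 0.16, adjusted p = 9.3e-35). Kdelr2 and Kdelr3 are receptors that return escaped ER proteins from the Golgi. Kdelr2 was at 1237 and 1186 in Pro-osteoblast, against 126 to 294 (median 187) elsewhere (2.65 on the log2 scale), and Kdelr3 at 375 and 385, against 17.0 to 61.8 (median 39.9) (3.25). Sec24d, a cargo-selecting COPII coat subunit, was at 534 and 749.6 in Pro-osteoblast, against 85.0 to 238 (median 167) elsewhere (2.08). Mia3 (TANGO1), which links procollagen to the forming carrier, was at 403 and 628 in Pro-osteoblast, against 109 to 227 (median 187) elsewhere (1.75). No Pro-osteoblast sum of these 5 genes overlapped another class.

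All 6 translocon members rose in Pro-osteoblast. Sec61b, a small subunit of the Sec61 channel, was at 815 and 724 in Pro-osteoblast, against 88.1 to 306 (median 116) elsewhere, a log2 change of 2.41 (SE 0.15, adjusted p = 8.0e-25). Sec61a1, which forms the pore, was at 628 and 573 in Pro-osteoblast, against 146 to 225 (median 197) elsewhere (1.69 on the log2 scale). The 4 subunits of the translocon-associated protein complex did not move equally: Ssr4 changed by 2.58 (SE 0.14, adjusted p = 2.8e-28), to 984 and 924 in Pro-osteoblast, against 76.5 to 255 (median 168) elsewhere. Ssr1, Ssr2 and Ssr3 changed by 1.66, 1.39 and 1.39, with Pro-osteoblast levels of 487 and 482, 468 and 361, and 703 and 814, against medians of 153, 148 and 308 elsewhere. All 6 were above every other sum. With raw totals the calls of Ssr2 (0.31) and Ssr3 (0.30) were lost.

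The general ER chaperones did not rise with the rest. Hspa5 was at 834 and 702 in Pro-osteoblast, against 731 to 4036 (median 1339.8) elsewhere, a log2 change of -0.99 (SE 0.12, adjusted p = 8.4e-11). Its sums overlapped those of Osteoblast progenitor and Pre-osteoblast/chondrocyte and lay below the others. Calr, a lectin chaperone that also holds ER calcium, was at 553 and 451 in Pro-osteoblast, against 856 to 1326 (median 1003) elsewhere, a change of -1.07 (SE 0.13, adjusted p = 1.3e-11) with no overlap. Hsp90b1 (GRP94) was at 590.2 and 439.6 in Pro-osteoblast, against 462 to 753 (median 623) elsewhere, a small change of -0.36 (SE 0.14, adjusted p = 0.025) that 4 of the other settings, DESeq2 among them, did not call. Sdf2l1, an Hspa5 cofactor, was at 9.37 and 16.9 in Pro-osteoblast, against 18.2 to 66.0 (median 33.8) elsewhere, a change of -1.20 (SE 0.50, adjusted p = 0.047) that 6 of the other settings did not call. Canx, a membrane-bound lectin chaperone, and Dnajc3, an inhibitory co-chaperone, were not called, at -0.12 and -0.48. The members of this group that rose were Manf, a small ER resident protein, at 553 and 541 in Pro-osteoblast, against 176 to 399 (median 238) elsewhere (1.22 on the log2 scale), and the co-chaperone Dnajb11. Dnajb11 changed by 0.63 (SE 0.25, adjusted p = 0.039), with sums that overlapped other classes, and 7 settings ended or turned its call. Of the disulfide isomerases, Pdia6 fell by 1.01 (SE 0.17, adjusted p = 3.0e-07), to 253 and 185 in Pro-osteoblast, against 187 to 536 (median 427) elsewhere, while Pdia3 (0.29) and Pdia4 (0.06) were not called.

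**Figure D3:**
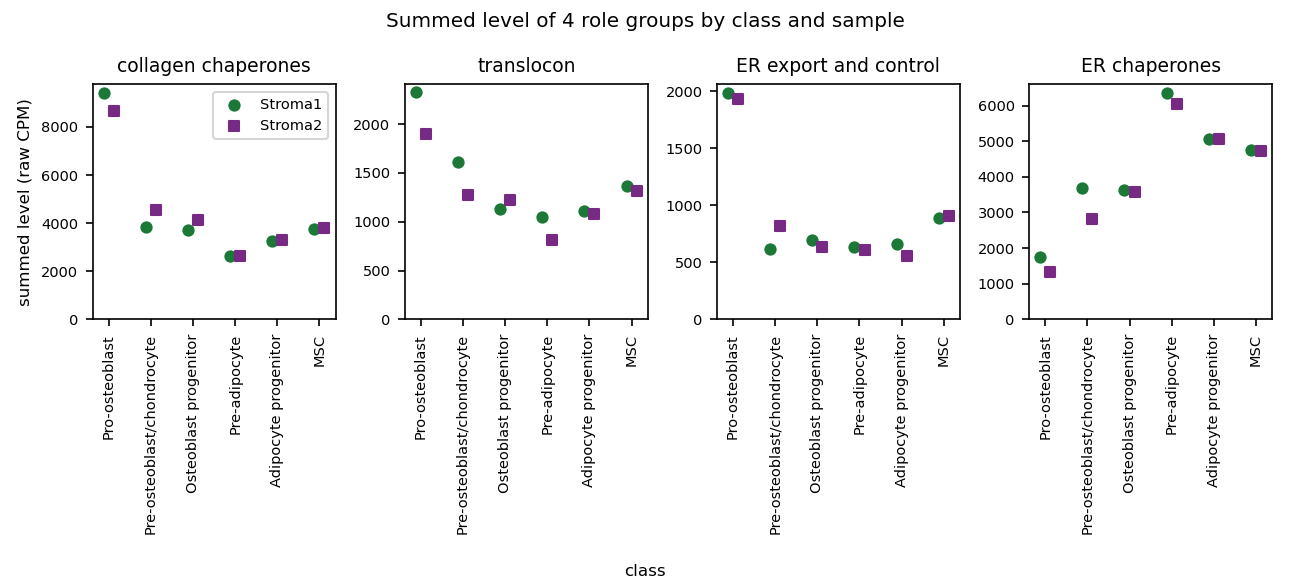
Summed raw CPM of 4 role groups in each class, 1 point per sample. Collagen chaperones, translocon and ER export genes are highest in Pro-osteoblast in both samples. The 8 ER chaperones are lowest there (1741 and 1328 CPM) and highest in Pre-adipocyte (6340 and 6032 CPM). Raw totals put the median gene at -1.07 on the log2 scale in Pro-osteoblast, which lowers all sums there. Of the 8 ER chaperones, Hspa5 alone was called higher in Pre-adipocyte.

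Set against MSC alone, from which the pseudotime starts, 26 members rose and 7 fell in Pro-osteoblast, with 19.9% of all genes rising and 18.7% falling. The 2 comparisons share the Pro-osteoblast and MSC sums, so their values are given side by side and not as independent. Plod2 changed by 4.39 (SE 0.23, adjusted p = 2.5e-30), with 871 and 982 TMM-scaled CPM in Pro-osteoblast, against 35.4 and 50.9 in MSC. Sparc changed by 4.47 (SE 0.17, adjusted p = 7.8e-39), with 96498 and 127407 in Pro-osteoblast, against 4994 and 5118 in MSC. Loxl1 fell by 5.34 (SE 0.29, adjusted p = 3.2e-29), with 46.8 and 9.86 in Pro-osteoblast, against 626 and 656 in MSC. Both samples gave the same direction for each of the 33 called members. The calls were made from these same 2 samples, so this is no independent support. Dnajc3, not called against all 5 classes, fell here by 0.84 on the log2 scale, so that 5 of the 6 members with an ERSE fell and the sixth, Canx, was not called; of the 5, Hsp90b1 was not called by DESeq2. Tmem38b, by contrast, was not called against MSC, with a change of -0.37 (SE 0.40, adjusted p = 0.51).

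How large these changes look depends on the scale, since a Pro-osteoblast cell yielded more counts, with medians per cell of 4422 and 4201 in the 2 samples, against 1378 and 1160.0 in MSC. Per cell, and with no scaling, Serpinh1 averaged 34.0 counts in Pro-osteoblast, against 3.21 in MSC (means of 2 samples). Hspa5 averaged 1.88 counts per cell in Pro-osteoblast, against 2.11 in MSC, and Calr 1.23, against 1.65. Hsp90b1 turned direction on this scale, with 1.26 counts per cell in Pro-osteoblast, against 1.07 in MSC.  With raw totals the median gene fell by 1.24 on the log2 scale against MSC, 13 members remained called higher, and P4hb, Ppib, Plod1 and Manf turned direction, to -0.05, -0.21, -0.18 and -0.13.

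**Figure D4:**
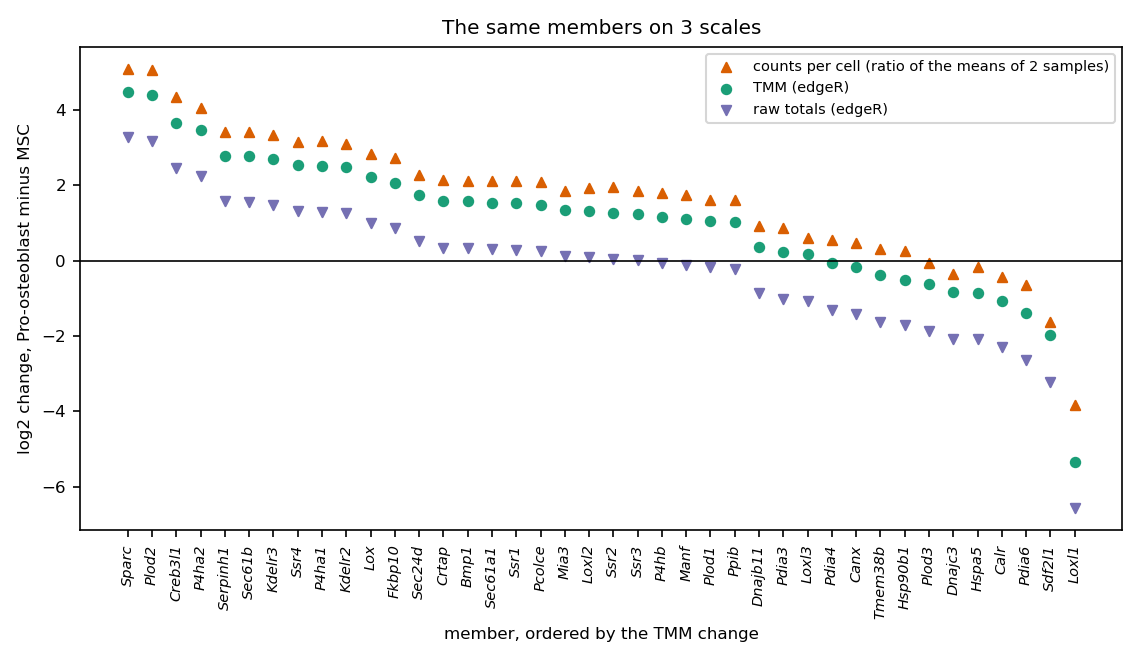
Change of each tested member in Pro-osteoblast against MSC on 3 scales: counts per cell, TMM and raw totals, ordered by the TMM change. The scales shift the whole series up or down, and the members from Sparc to Fkbp10 are above 0 and those from Dnajc3 to Loxl1 below 0 on all 3.

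The 5 libraries can also be set side by side, though barcodes recurred between libraries of the same sample. With 20 to 135 Pro-osteoblast cells in each, raw CPM of Serpinh1 ran from 6252 to 7849 in Pro-osteoblast, against 2293 to 2513 in MSC. Raw CPM of Hspa5 ran from 294 to 691 in Pro-osteoblast, against 1465 to 1849 in MSC, and of Pdia6 from 66.3 to 199, against 609 to 644. In these raw CPM, 14 members were higher in every Pro-osteoblast library than in every MSC library, 13 were lower and 15 overlapped. The same count was not made over all genes. By another measure, edgeR with raw totals called 408 of all 6229 genes higher and 4007 lower against MSC. The 13 lower members are therefore not read as a trait of the members.

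Along the osteoblast pseudotime, 1926 cells were divided into 5 ranges of equal cell number, range 1 being the earliest. Ranges 1 to 3 were nearly all MSC, range 4 mostly Osteoblast progenitor (115 of 146 cells in Stroma1 and 191 of 239 in Stroma2), and range 5 mostly Pro-osteoblast (42 of 50 and 303 of 336), so range 5 repeats most of the cells of the class above. In range 5 against range 1, 25 members rose and 7 fell, with a median of 1.09; of the 5709 genes tested, 18.5% rose and 19.0% fell. With 3 ranges in place of 5, 20 rose and 5 fell, and P4hb, Ppib, Manf, Mia3, Ssr3, Dnajc3 and Hsp90b1 were no longer called. Serpinh1 was at 2216 and 2195 TMM-scaled CPM in range 1, 2288 and 2203 in range 2, 2156 and 2269 in range 3, 2327 and 2329 in range 4 and 12703 and 14351 in range 5. Creb3l1 was at 76.2 and 131 in range 1, 79.0 and 94.5 in range 2, 40.9 and 97.8 in range 3, 67.4 and 50.3 in range 4 and 866 and 992 in range 5. Ssr4 was at 175 and 134 in range 1, 173 and 189 in range 4 and 944 and 917 in range 5. In both samples these 3 genes were highest in range 5, with no such rise in range 4.

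Hspa5 and Pdia6 were lower from range 4 on. Hspa5 was at 1395 and 1511 in range 1, 1445 and 1466 in range 2, 1309 and 1439.8 in range 3, 881 and 889.8 in range 4 and 875 and 711 in range 5. Pdia6 was at 605 and 675 in range 1, 585 and 523 in range 3, 409 and 435 in range 4 and 292 and 196 in range 5. Between neighbouring ranges, the largest step of Hspa5 was from range 3 to range 4 in both samples, where no test was run. Loxl1 followed the collagen genes in time but not in direction, with 704 and 799 in range 1, 624 and 568 in range 4 and 112 and 29.97 in range 5. From range 5 minus range 1, the log2 changes were 5.02 (SE 0.33, adjusted p = 2.4e-21) for Plod2, 2.62 (SE 0.15, adjusted p = 2.8e-23) for Serpinh1, -0.92 (SE 0.16, adjusted p = 3.3e-06) for Hspa5 and -4.07 (SE 0.27, adjusted p = 1.4e-20) for Loxl1. With raw totals the median gene fell by 1.14, 12 members remained higher, and P4hb, Ppib, Mia3, Ssr3 and Manf turned direction.

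A split of the same cells into 10 bins placed the steps of Sparc, Plod2 and Loxl1 more closely. In raw CPM, Sparc was at 7263 and 6727 in bin 8, 42551 and 54122 in bin 9 and 60018 and 64749 in bin 10. Plod2 was at 58.5 and 155 in bin 8, 391 and 409.7 in bin 9 and 526 and 508 in bin 10. Loxl1 was at 731 and 569 in bin 8 and 124 and 32.6 in bin 9, and had 0 and 3 counts in bin 10. In both samples the largest step of Sparc between neighbouring bins was that into bin 9, which rested on 30 cells of Stroma1 and 163 of Stroma2, after 62 and 130 in bin 8. Hspa5 fell more gradually. In raw CPM it was at 1397 and 1873 in bin 5, 1388 and 1257 in bin 6, 1087 and 987 in bin 7 and 760 and 921 in bin 8.

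**Figure D5:**
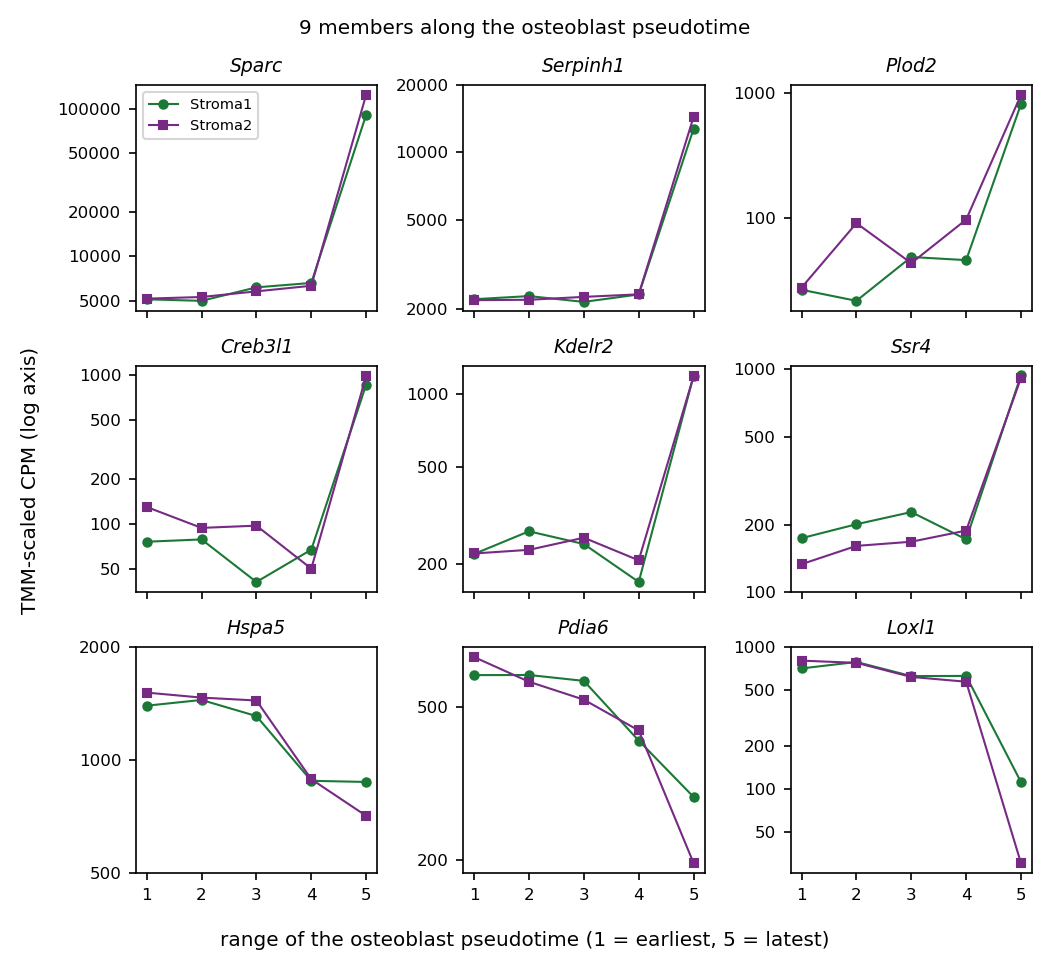
TMM-scaled CPM (log axis) of 9 members in each of 5 ranges of the osteoblast pseudotime, with 1 line per sample. Sparc, Serpinh1, Plod2, Creb3l1, Kdelr2 and Ssr4 are highest in range 5, Loxl1 drops in range 5, and Hspa5 and Pdia6 are lower from range 4 on.

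Outside the osteoblast end, Hspa5 rose in both of the authors' adipocyte classes. In Pre-adipocyte 2 members rose and 10 fell, with 14.5% of all genes rising and 6.21% falling; DESeq2 called 5 lower, without Bmp1, Crtap, Pcolce, Ssr1 and Ssr2. Hspa5 was at 4036 and 3692 in Pre-adipocyte, against 702 to 2207 (median 823) in the other classes, a log2 change of 1.87 (SE 0.10, adjusted p = 1.8e-29). Both Pre-adipocyte sums were above all others. Of the other 7 ER chaperones 0 were called by edgeR; at an unadjusted p under 0.05, Calr (0.28) and Dnajc3 (0.50) were higher and Canx (-0.55) was lower. Canx, at 178 and 151 in Pre-adipocyte, was below all other sums. In raw CPM 10 immediate-early genes, the first to be transcribed when a cell is stimulated, summed to 45885 and 44188 in Pre-adipocyte, against 6112 and 6181 in MSC, and 5 heat shock genes to 2752 and 2621, against 380 and 382. Their part in the Hspa5 change was not tested. Without cells holding blood or endothelial counts, the change of Hspa5 was 1.85. Of 22 tested genes of the unfolded protein response and ER degradation, 4 rose in Pre-adipocyte, among them Ppp1r15a (3.37), Ddit3 (2.18) and Atf4 (1.45), 1 fell, Txndc5 (-0.80), and 17 were not called, beside the 14.5% and 6.21% of all genes. The 10 that fell in Pre-adipocyte were Sparc (-1.19), Fkbp10 (-1.48), Ssr4 (-1.28), Kdelr2 (-1.16), Serpinh1 (-0.93), Ssr2, Ssr1, Bmp1, Pcolce and Crtap. Pro-osteoblast, where these 10 genes were called higher, is in the mean of the other classes, so a fall need not be one against MSC. Serpinh1 was at 1691 and 1758 in Pre-adipocyte, below all 10 other sums.

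In Adipocyte progenitor 3 members rose and 10 fell, with 11.4% of all genes rising and 4.01% falling. Hspa5 was at 2151 and 2207 in Adipocyte progenitor, a log2 change of 0.88 (SE 0.10, adjusted p = 2.2e-12), beside immediate-early sums of 30559 and 29581 CPM. Loxl1 (1.05) and Pdia6 (0.42) also rose. Creb3l1 (-1.32), Plod2 (-1.19), P4ha1 (-1.03), Sparc (-0.98), Sec61b, Kdelr2, Serpinh1, Fkbp10, Sec24d and Sec61a1 fell, the call of Sec61a1 being lost in 6 of the other settings. The mean of the other classes contains Pro-osteoblast, where these 10 genes were higher, and no Adipocyte progenitor sum lay apart from the rest for any member.

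In MSC 4 members rose and 9 fell, with 11.2% of all genes rising and 9.46% falling. Loxl1 was at 626 and 656 in MSC, a change of 1.41 (SE 0.13, adjusted p = 2.8e-16); Sdf2l1 at 57.8 and 66.0, a change of 1.18 (SE 0.31, adjusted p = 0.0019); and Pdia6 at 527 and 536, a change of 0.66 (SE 0.11, adjusted p = 1.6e-06). For these 3 genes both MSC sums were the highest of all classes. Dnajc3 rose by 0.53. Plod2 (-1.69), Sparc (-1.19), Sec61b, Creb3l1, Bmp1, Serpinh1, Ssr4, Fkbp10 and P4hb fell, P4hb turning to 0.07 with raw totals, under which 15 members were called higher in MSC and 4 lower. The falls of Fkbp10 and P4hb were each lost or turned in 7 of the other settings and that of Ssr4 in 6. The mean of the other classes contains Pro-osteoblast here too.

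Osteoblast progenitor, which made up most of range 4 of the pseudotime, showed no rise like that of Pro-osteoblast. The few Pre-osteoblast/chondrocyte cells on the pseudotime lay in range 4 (2 and 2) and range 5 (3 and 19). In Osteoblast progenitor 2 members rose and 14 fell, with 5.99% of all genes rising and 3.16% falling; DESeq2 called 1 higher and 6 lower, and raw totals 5 higher and 4 lower. Loxl1 rose by 1.01 and Canx by 0.50 (SE 0.17, adjusted p = 0.045), and both Canx sums (301 and 293) were above all others, but 5 of the other settings, DESeq2 among them, did not call Canx. Hspa5 was at 812 and 772 in Osteoblast progenitor, a change of -0.88 (SE 0.12, adjusted p = 6.0e-09), and Lox at 422 and 397, a change of -0.90 (SE 0.14, adjusted p = 1.0e-06). Of the 14 falls those of Ssr3 and Kdelr2 were each lost in 8 of the other settings and those of Plod2 and Sec24d in 7. The mean of the other classes contains Pro-osteoblast here too, so a fall need not be one against MSC. Sparc, among the 14, was at 6982 and 7426 raw CPM in Osteoblast progenitor, against 5809 and 5972 in MSC. Mitochondrial genes took 72264 and 68970 CPM in this class, against 43200 and 43133 in MSC, and their part in these values was not tested.

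In Pre-osteoblast/chondrocyte, the smallest class, 2 members rose and 4 fell, with 6.92% of all genes rising and 5.23% falling. Tmem38b was at 85.0 and 202, on 5 and 24 counts, a change of 1.46 (SE 0.38, adjusted p = 0.0031), unlike its fall in Pro-osteoblast. In raw CPM it was at 90.6 and 200 in this class, against 105 and 118 in Osteoblast progenitor. Sec61b was at 306 and 286, a change of 0.77 (SE 0.26, adjusted p = 0.036) that 5 of the other settings, DESeq2 among them, did not call. Lox was at 85.0 and 336, below all other sums, a change of -1.77 (SE 0.23, adjusted p = 2.4e-09). The Stroma1 sum of Lox, at the same level as that of Tmem38b, likewise rested on 5 counts. Dnajc3 (-1.41), Mia3 (-1.01) and Hspa5 (-0.92) also fell. The mean of the other classes again contains Pro-osteoblast, where Lox and Mia3 were higher. Serpinh1, at 2668 and 3109, and Plod2, at 119 and 227, lay between MSC and Pro-osteoblast in both samples, but were not called against the other 5 classes. The osteoblast markers of this class were at 98356 and 99746 CPM, against 8657 and 9147 in MSC.

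The clients of this machinery were measured in the same cells. Col1a1 was at 201263 and 202082 raw CPM in Pro-osteoblast, against 483 and 829 in MSC, and changed by 8.41 (SE 0.21, adjusted p = 9.3e-54) against the other 5 classes. Col1a2 was at 188626 and 224944 in Pro-osteoblast, against 6442 and 6596 in MSC, and changed by 5.87 (SE 0.19, adjusted p = 2.1e-45). Col3a1 was not called in Pro-osteoblast, with a change of 0.11 (SE 0.18, adjusted p = 0.68). Of 16 collagen chain genes tested, 7 rose, led by Col1a1, Col11a1 (7.66) and Col2a1 (6.41), and 5 fell, led by Col4a2 (-5.85), a chain of basement membranes, and Col8a1 (-5.59). Cxcl12, which marks MSC, changed by -4.12 in Pro-osteoblast and Alpl, an osteoblast enzyme, by 2.12.

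Other genes of the pathway, listed apart from the members, changed in Pro-osteoblast as follows; all counts are out of the genes tested and stand beside the 21.4% that rose and 17.9% that fell of all genes. Of 12 further collagen-modifying genes 7 rose and 0 fell, led by Fkbp11 (4.23), P3h1, the prolyl 3-hydroxylase partner of Crtap, and Fkbp7 (2.61). Of 18 genes of targeting, translocation and signal cleavage 14 rose and 0 fell, led by Sec61g (2.46), Tram1 (2.43) and Srp9. Of 12 N-glycosylation genes 9 rose and 0 fell, led by Ostc (2.86), Ost4 (2.39) and Tmem258 (2.15). Of 30 genes of transport between ER and Golgi 23 rose and 0 fell, led by Copz2 (2.92), the cargo receptor Lman1 (2.54) and Sec23a (2.38). The list of the unfolded protein response and ER degradation differed: of 22 genes 10 rose, led by Txndc5 (1.63), Creb3 (1.57) and Xbp1 (1.29), and Ppp1r15a (-2.51) and Atf6 (-1.49) fell. In the first 4 of these lists edgeR also found 0 lower genes at an unadjusted p under 0.05. With raw totals the 5 lists had 5, 3, 6, 14 and 2 genes higher and 3, 4, 4, 2 and 13 lower, in the order given.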

How the data were processed

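Single-cell RNA of sorted bone marrow stroma was measured by inDrops. The authors deposited 1 table of whole-number counts per gene and cell barcode, with class names, the filter result, and the mitochondrial share and pseudotime as fractions. Bowtie 1.1.1 and GRCm38 are named in the submitters' processing notes. Not given in the sources used here: the counting tool, its use of strand and of molecular identifiers, and the annotation. The members and gene lists were chosen with earlier results of these data known. All members are named; in other lists at most 3 genes with the highest and 2 with the lowest called change per comparison, with the same direction in both samples, are named, besides the checks Col1a1, Col1a2, Col3a1, Cxcl12 and Alpl.

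Counts of cells passing the authors' filter were summed per sample and class, or per sample and 1 of 5 ranges of the pseudotime, with at least 15 cells. edgeR 4.0.16 in R 4.3.3 was fitted with class or range and sample as terms (TMM, filterByExpr with a minimum count of 10, quasi-likelihood test, Benjamini-Hochberg). The sample term pairs sums of the same sample. The fit was tested on simulated data. DESeq2 1.42.0, raw totals, other filters, other cell selections and counts per cell, the last chosen after seeing the data, were the alternatives. Doublets were kept; Scrublet called 1 to 6 cells per library, and leaving those out was an alternative that ended 7 calls. Total counts per sum ran from 55218 to 1450797. Pro-chondrocyte, with 14 cells, was not tested.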

Additional observations from a re-analysis of the deposited data

Results flagged for a closer look

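The barcodes marked as not passing the authors' filter enter no comparison, and the members were nevertheless counted there. Over 585 such barcodes of Stroma1 the 42 members summed to 6326 CPM, and over 1675 such barcodes of Stroma2 to 5956 CPM; Sparc alone was at 1331 and 1025 CPM. Both sums are above the limit that a count of 0 allows, and both are below the sums of every class that was compared. In all, 3765 barcodes of Stroma1 and 11263 of Stroma2 were deposited. Those marked neither as passing nor as not passing were neither compared nor counted here.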

How the results depend on the processing

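Of 159 called changes of single members, 119 were called under every setting other than raw totals in which they were tested. A minimum count of 20 and sums per library left some of the 159 untested. With raw totals, the members called higher and lower were 15 and 4 in MSC, 7 and 7 in Adipocyte progenitor, 5 and 4 in Osteoblast progenitor, 6 and 3 in Pre-osteoblast/chondrocyte, 18 and 13 in Pro-osteoblast, 13 and 14 in Pro-osteoblast against MSC, and 12 and 13 in range 5 against range 1. Raw totals turned P4hb to 0.070 in MSC, Ppib to -0.035 and Dnajb11 to -0.47 in Pro-osteoblast. Against MSC they turned P4hb to -0.053, Plod1 to -0.18, Ppib to -0.21 and Manf to -0.13. In range 5 against range 1 they turned P4hb to -0.10, Ppib to -0.30, Mia3 to -0.15, Ssr3 to -0.095 and Manf to -0.24. Counts per cell, chosen after seeing the data, turned Hsp90b1 to 0.24 against MSC and to 0.17 in range 5. In Osteoblast progenitor, 1 member was higher with no filter, DESeq2, cells of 1000 counts or more, without cells with blood or endothelial counts, and with neighbour labels, and 5 were lower with no filter and 6 with DESeq2. In Pre-osteoblast/chondrocyte, edgeR with no filter called 0 members higher (adjusted p = 0.052 for Tmem38b and 0.45 for Sec61b), and DESeq2 and neighbour labels 1 each. A minimum count of 20 gave 16 lower in Adipocyte progenitor, and DESeq2 gave 5 lower in Pre-adipocyte. With the 20 top genes left out, the mean summed CPM of the members was 25968 in MSC, 23932 in Adipocyte progenitor, 21714 in Pre-adipocyte, 24848 in Osteoblast progenitor, 30327 in Pre-osteoblast/chondrocyte, 146075 in Pro-osteoblast, 26239 in range 1 and 135800 in range 5. The sum in Adipocyte progenitor was 19942 with each barcode once, 19984 with cells of 1000 counts or more and 19954 without cells with blood or endothelial counts. Without the replicate block, which pairs sums of the same sample, 155 of the 159 calls held, with 27 members higher and 6 lower in Pro-osteoblast. Leaving out either sample left 1 sum per class and no test over counts of calls; no called change turned its sign. The cause of these differences was not tested.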

Other observations

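Pro-chondrocyte, with 4 cells in Stroma1 and 10 in Stroma2, was too small to test. The 5 chondrocyte markers had 0 counts in both samples, while the 8 osteoblast markers summed to 935 and 2460 counts, of which Spp1 alone gave 917 and 2375, so the class is called here by the authors' label only. The 42 members together had 37 and 129 counts there, which is 8377 and 11029 CPM, and these are values of the libraries with no test.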
